A study of Danio rerio with 24 samples.

Results

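The 39 genes described here build and run mitosis: the cyclins and kinases of mitotic entry, the chromosomal passenger complex, the spindle checkpoint, the outer kinetochore, the spindle, condensin with other chromosome proteins, and cytokinesis. They were listed by symbol, with earlier results of these data known, as rows of a table of 31242 genes from whole zebrafish larvae, and 38 of them were found. The inner centromere protein gene incenp had no row under that symbol and was not analysed here. The 38 passed the filter on low counts in every comparison, with mean expected counts from 128 per sample (ccnb2) to 5142 (mki67).

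The study compared wildtype larvae with larvae homozygous for a frameshift in klf9, a deletion of 2 bases in the gene for the transcription factor Krüppel-like factor 9. Mutants were derived from the AB strain, wildtype controls descended from the same grandparents, and no group received a further treatment. Whole larvae were frozen at 5 days post-fertilization, at 3 hours before lights on (ZT-3), at lights on (ZT0) and 2.5 hours after it (ZT+2.5), where ZT is Zeitgeber time. Each of the 6 groups of genotype and time held 4 samples, each a pool of 6 larvae, so that a value averages over animals and over all their tissues. One mutant line was used. RNA of the 4 pools of a group was prepared as a set, so that preparation and group cannot be told apart.

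Cells enter mitosis when cyclin B bound to the kinase Cdk1 becomes active, which the kinase Wee1 prevents by phosphorylating Cdk1. Polo-like and Aurora kinases then organise the spindle, condensin compacts the chromosomes, and the spindle checkpoint holds back Cdc20 and the anaphase-promoting complex until every kinetochore is attached to microtubules. Most of these genes are transcribed in a wave before and during mitosis, so that their RNA in a tissue tends to follow the number of cells in that phase. In zebrafish, the circadian clock and light time the cell cycle, and wee1 is itself induced by light in zebrafish cells. In a bulk sample, fewer dividing cells and less RNA per dividing cell cannot be told apart.

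The libraries held 41444609 to 64452247 expected counts (median 53578316), of which the 38 genes together took 0.0543% to 0.0935%. Levels are counts scaled to a common library size with TMM factors (CPM), and log2 CPM carries a prior count of 2. No transcript length was applied, so levels are compared between samples of 1 gene and not between genes. As a check of the genotype labels, klf9 RNA was lower in the mutants over all time points (log2 fold change -1.51 ± 0.16 (SE), adjusted p = 4.79e-07, edgeR). At ZT-3 it was 35.7 to 65.6 CPM in wildtype and 10.6 to 19.8 CPM in klf9-/-, and at ZT0 54.4 to 74.2 CPM and 18.5 to 23.2 CPM. At ZT+2.5 the ranges of 15.3 to 38.3 CPM and 4.72 to 18.7 CPM overlapped (adjusted p = 0.115, edgeR), with the library labelled wildtype ZT+2.5 replicate 2 at 15.3 CPM. Counts of called members in comparisons with the wildtype pools of ZT+2.5 are therefore also given without that library. For other lists this is done only in part, and some of their counts changed as well. The time labels were checked with the light-induced clock gene per2, which was 4.43 to 5.23 CPM at ZT-3, 11.1 to 14.5 CPM at ZT0 and 173 to 206 CPM at ZT+2.5 over both genotypes.

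Mitosis genes were slightly lower in klf9-/- larvae than in wildtype, nearly across the list. Over all time points, 27 of the 38 members fell and 1 rose at an adjusted p of at most 0.1, in edgeR's quasi-likelihood test of all 24 samples with time and the first principal component of the samples (PC1) as covariates. Over all 23158 genes tested in the same fit, 16.5% were called lower and 19.5% higher. The median log2 fold change of the members was -0.19, beside 0.01 over all genes tested, and 37 of 38 members had a negative value, beside 46.3% of all genes. No member reached a log2 fold change of 0.5 in either direction. The range ran from -0.30 (aurkb) to 0.13 (wee1), that is, from a fold of 0.813 to one of 1.1. The only member called higher was wee1, the gene for the kinase that holds Cdk1 inactive.

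**Figure D1:**
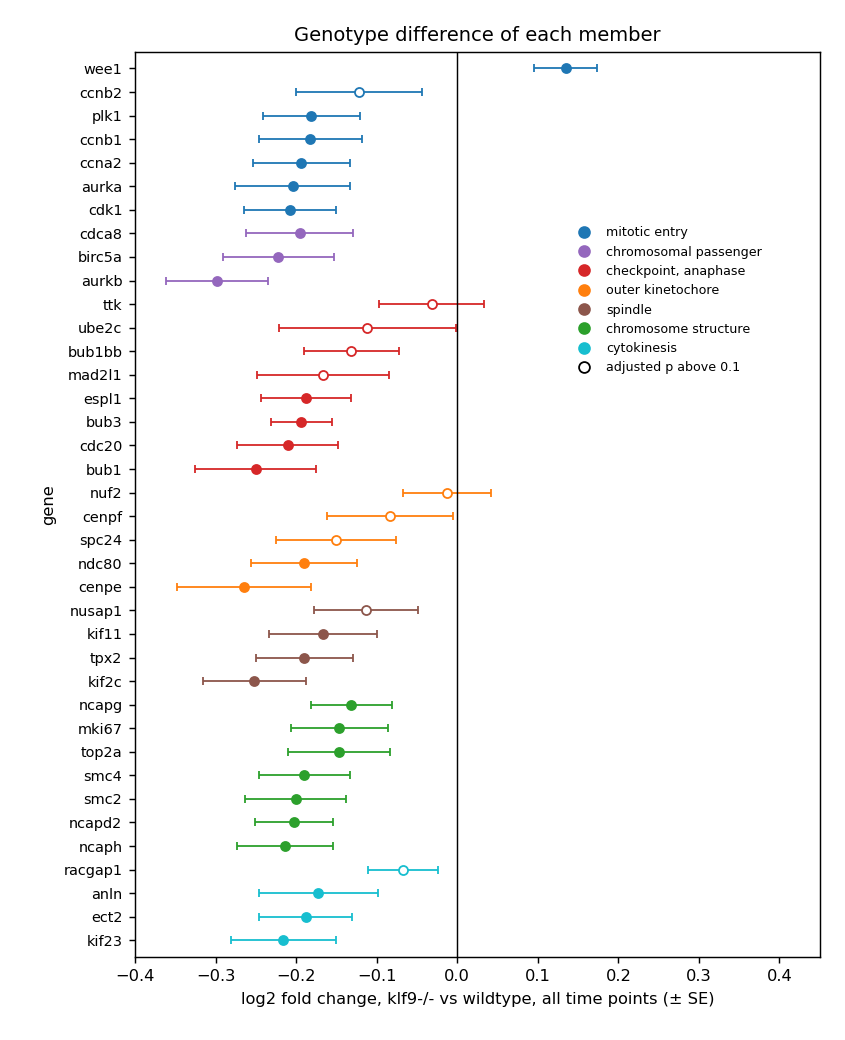
Log2 fold change of each of the 38 members in klf9-/- against wildtype over all time points, with its SE, coloured by role, open where the adjusted p was above 0.1. All points but that of wee1 lie left of 0, between -0.30 and -0.01.

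Mean level of the members, as the mean of their log2 CPM in a sample, at ZT-3 was 3.99 ± 0.20 for wildtype pools and 3.88 ± 0.07 for klf9-/- pools (SD, n = 4). At ZT0 it was 3.76 ± 0.20 and 3.61 ± 0.06, and at ZT+2.5 3.97 ± 0.12 and 3.75 ± 0.09. The ranges of the genotypes overlapped at ZT-3 (3.75 to 4.23 in wildtype, 3.81 to 3.96 in klf9-/-) and at ZT0 (3.55 to 3.95 and 3.55 to 3.69). At ZT+2.5 they met without overlap, at 3.87 to 4.12 in wildtype and 3.63 to 3.86 in klf9-/-. Wildtype pools at ZT0 fell into a higher pair (replicates 2 and 3, at 3.91 and 3.95) and a lower pair (replicates 1 and 4, at 3.64 and 3.55), the lower pair within or near the range of the mutants.

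**Figure D2:**
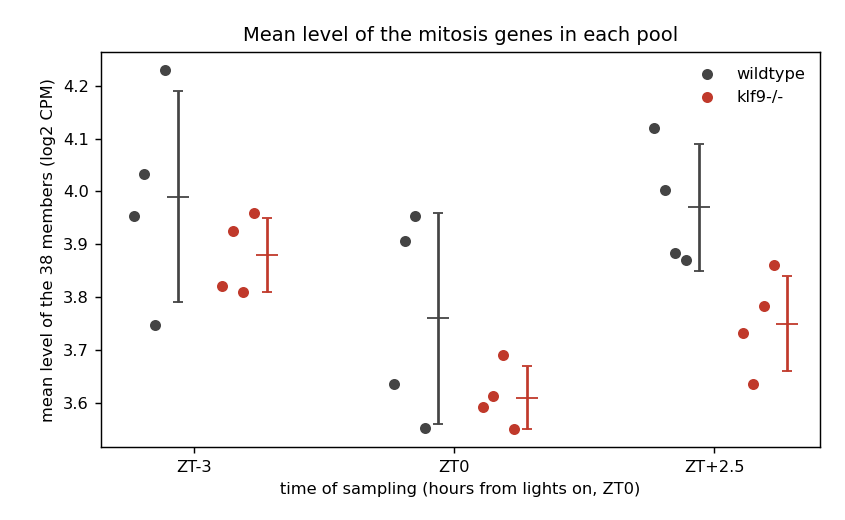
Mean log2 CPM of the 38 members in each of the 24 pools (points) with the mean and SD of each group of 4 (bars), by time of sampling and genotype. Both genotypes are lowest at ZT0, and only at ZT+2.5 do all klf9-/- pools (3.63 to 3.86) lie below all wildtype pools (3.87 to 4.12).

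Members called lower were found in each role. All 7 chromosome genes fell: the condensin subunits smc2, smc4, ncapg, ncapd2 and ncaph, topoisomerase top2a and the chromosome surface protein gene mki67, with a median of -0.19. All 3 measured genes of the chromosomal passenger complex fell (aurkb, birc5a and cdca8, median -0.22). At the spindle, 3 of 4 fell (the motors kif11 and kif2c and the Aurora A partner tpx2), and -0.11 was measured for nusap1, a microtubule bundling protein, at an adjusted p of 0.2 (edgeR). In cytokinesis, 3 of 4 fell: kif23, ect2 and anln, which form and contract the cleavage furrow. For racgap1, the partner of kif23 in the central spindle, the log2 fold change was -0.07 at an adjusted p of 0.261 (edgeR).

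Of 8 checkpoint and anaphase genes, 4 fell: the checkpoint scaffold genes bub1 and bub3, the anaphase activator cdc20 and the separase gene espl1. The other 4 were also negative, from -0.17 (mad2l1, adjusted p = 0.136, edgeR) to -0.03 (the checkpoint kinase ttk, adjusted p = 0.762). Among them ube2c, a ubiquitin-conjugating enzyme of the anaphase-promoting complex, had -0.11 (adjusted p = 0.487, edgeR). Without wildtype ZT+2.5 replicate 4, its lowest pool, it had -0.18 (adjusted p = 0.0155, edgeR). That pool was chosen after its value was seen. Leaving out a low wildtype value lowers the fold change by itself, so the second p is no test of ube2c. Of 5 outer kinetochore genes, the microtubule-binding genes cenpe and ndc80 fell, and spc24, cenpf and nuf2 had values of -0.15, -0.08 and -0.01. Of the 7 entry genes, 5 fell (ccnb1, ccna2, cdk1, plk1 and aurka, with -0.18 to -0.21), ccnb2 had -0.12 at an adjusted p of 0.26 (edgeR), and wee1 rose.

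The smallest p among the members belonged to bub3 (ENSDARG00000075883), which recruits checkpoint proteins to unattached kinetochores. Wildtype pools held 13.7, 14.7, 14.5 and 13.1 CPM at ZT-3, 13.9, 15.7, 14.3 and 13.5 CPM at ZT0 and 17.1, 15.5, 16.3 and 14.9 CPM at ZT+2.5, in the order of replicates 1 to 4. In klf9-/- the values were 11.9, 13.2, 13.1 and 13.1 CPM at ZT-3, 13.2, 12.1, 11.8 and 10.9 CPM at ZT0 and 15.8, 13, 14.7 and 13.4 CPM at ZT+2.5. The genotypes did not overlap at ZT0, and at ZT-3 and ZT+2.5 their edges did. Over all time points bub3 fell by a log2 fold change of -0.19 ± 0.04 (SE), adjusted p = 0.000451 (edgeR), a fold of 0.875.

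For aurkb (ENSDARG00000037640), the kinase of the chromosomal passenger complex, wildtype pools held 9.88, 11.3, 9.12 and 12 CPM at ZT-3, 7.9, 9.7, 10.8 and 7.97 CPM at ZT0 and 11.7, 11.5, 10.2 and 10.9 CPM at ZT+2.5. Mutant pools held 7.89, 8.61, 9.41 and 8.89 CPM at ZT-3, 7.58, 7.7, 8.1 and 7.11 CPM at ZT0 and 9.51, 7.03, 10.2 and 8.07 CPM at ZT+2.5. All mutants lay below all wildtype pools at ZT+2.5, while at ZT0 the lower pair of wildtype pools lay among the mutants. Over the 3 time points together, the log2 fold change of aurkb was -0.30 ± 0.06 (SE), adjusted p = 0.000869 (edgeR).

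The condensin subunit gene ncapd2 (ENSDARG00000005058) was measured at 20.6, 21.5, 17.8 and 25.6 CPM at ZT-3, 19.3, 22.7, 23 and 18.9 CPM at ZT0 and 27.5, 25.9, 24.2 and 24.2 CPM at ZT+2.5 in wildtype. In klf9-/- it was 17.7, 20.1, 16.8 and 18.3 CPM at ZT-3, 17.8, 19.5, 18.3 and 18.1 CPM at ZT0 and 22.5, 20.9, 22.1 and 23 CPM at ZT+2.5. Only at ZT+2.5 were the genotypes apart. The overall log2 fold change was -0.20 ± 0.05 (SE), adjusted p = 0.0026 (edgeR).

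Transcripts of kif2c (ENSDARG00000076228), a kinesin that takes microtubules apart, numbered 12.1, 12.2, 10.9 and 15.2 CPM at ZT-3, 8.74, 11.8, 11.8 and 8.39 CPM at ZT0 and 12.3, 11.4, 10.9 and 11.4 CPM at ZT+2.5 in wildtype. They were 11.3, 11.7, 10.1 and 11.8 CPM at ZT-3, 7.98, 8.13, 9.18 and 7.59 CPM at ZT0 and 8.86, 7.68, 10 and 10.1 CPM at ZT+2.5 in klf9-/-. Here too the groups were apart at ZT+2.5, with the mutants at up to 10.05 CPM and the wildtype pools from 10.85 CPM. For all samples together, the log2 fold change was -0.25 ± 0.06 (SE), adjusted p = 0.00439 (edgeR).

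Among the entry genes, ccnb1 (ENSDARG00000051923), which encodes cyclin B1, was at 16.9, 18.2, 16.7 and 23.5 CPM at ZT-3, 11.4, 15.5, 15.3 and 11.4 CPM at ZT0 and 16, 14.2, 13.4 and 13.2 CPM at ZT+2.5 in wildtype. In the mutants it was at 15.7, 16.4, 15.7 and 16.1 CPM at ZT-3, 11.2, 13, 13.7 and 11.7 CPM at ZT0 and 12.4, 10.5, 13.2 and 12.9 CPM at ZT+2.5. At ZT-3 and at ZT+2.5 every mutant pool lay below every wildtype pool, and at ZT0 the groups overlapped. The overall log2 fold change was -0.18 ± 0.06 (SE), adjusted p = 0.0356 (edgeR).

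Its kinase partner cdk1 (ENSDARG00000087554) was at 20.3, 21.3, 18.3 and 24.8 CPM at ZT-3, 15.1, 19.4, 17.9 and 13.9 CPM at ZT0 and 21, 19.6, 17.9 and 20 CPM at ZT+2.5 in wildtype. Mutant values were 16.9, 20.1, 16.9 and 18.9 CPM at ZT-3, 15, 14.7, 15.4 and 14.5 CPM at ZT0 and 16.2, 13.9, 16.6 and 18.1 CPM at ZT+2.5. The genotypes overlapped at each time point, and the log2 fold change over all of them was -0.21 ± 0.06 (SE), adjusted p = 0.00768 (edgeR). For the Polo-like kinase gene plk1 (ENSDARG00000058471), wildtype pools held 30.9, 33.3, 27.5 and 38.6 CPM at ZT-3, 22.1, 29.7, 28.5 and 21.1 CPM at ZT0 and 29.4, 25.1, 24.5 and 24.7 CPM at ZT+2.5. Mutant pools held 27.7, 32, 28.8 and 29.5 CPM at ZT-3, 21.6, 20.9, 23.3 and 20 CPM at ZT0 and 22.8, 20, 23.9 and 24.5 CPM at ZT+2.5. These too overlapped at each time point, with an overall log2 fold change of -0.18 ± 0.06 (SE), adjusted p = 0.026 (edgeR).

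In contrast, wee1 (ENSDARG00000093864) was at 11.3, 10.9, 9.63 and 12.2 CPM at ZT-3, 12.7, 12, 11.5 and 11.9 CPM at ZT0 and 14.6, 14.7, 13.6 and 16 CPM at ZT+2.5 in wildtype. In klf9-/- it was at 13.6, 11.4, 11.5 and 11.2 CPM at ZT-3, 12.4, 13.8, 13.9 and 13.7 CPM at ZT0 and 15.4, 14, 17 and 16.1 CPM at ZT+2.5. The ranges overlapped at each time point, at ZT0 through 1 mutant pool (replicate 1, at 12.4 CPM), while the other 3 mutant pools lay above all wildtype pools. Over all time points wee1 rose by 0.13 ± 0.04 (SE) on the log2 scale (adjusted p = 0.0106, edgeR). Without the ZT0 samples, and so with fewer samples in the fit, the value was 0.10 and no longer passed the test (adjusted p = 0.233, edgeR).

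**Figure D3:**
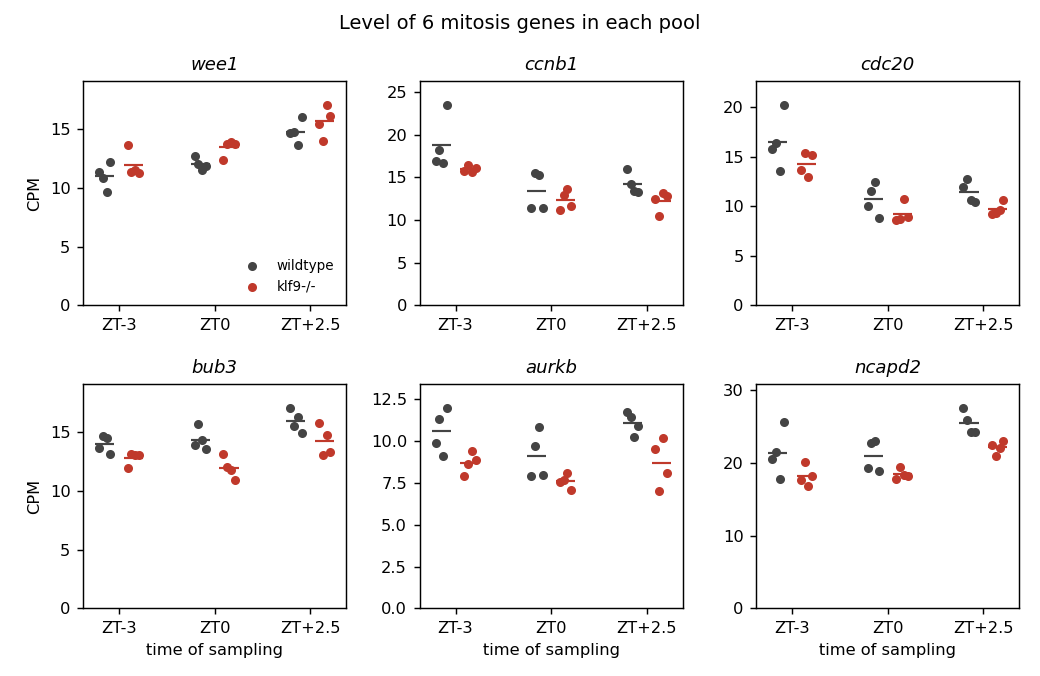
CPM of wee1, ccnb1, cdc20, bub3, aurkb and ncapd2 in each pool (points) by time and genotype, with the mean of each group of 4 as a bar. In 5 panels the klf9-/- means are below those of wildtype at each time point, and in the panel of wee1 they are above.

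At single time points, with 8 samples each, few members passed the test. At ZT-3 none was called, beside 8.83% of all genes tested in either direction, and DESeq2 called 0 as well. An unadjusted p under 0.05 was found for 6 members (15.8%), below the 20.4% of all genes. The median was -0.13, and 34 of 38 values were negative. Without wildtype replicate 3 of ZT-3, 5 members were called, all lower. Without wildtype replicate 4 of ZT-3, the highest pool of that group, the median was 0.01, so that the sign of the median at ZT-3 depended on that pool. At ZT0, bub3 fell (-0.30 ± 0.08 (SE), adjusted p = 0.0457, edgeR) and wee1 rose (0.18 ± 0.06 (SE), adjusted p = 0.0846), 1 member in each direction beside 5.95% of all genes called lower and 7.64% called higher. The median was -0.17, with 36 negative values. Counts without 1 pool or under another setting, above and below, stand without the share of all genes called in that fit, unless it is given. The count at ZT0 turned on single pools: 11 members were called without wildtype replicate 4 and 5 without wildtype replicate 1, 1 without wildtype replicate 2 or 3 or mutant replicate 2, and 0 without mutant replicate 3 or 4. At ZT+2.5, 6 members fell and none rose, beside 2.87% of all genes called lower, and the median was -0.24.

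The 6 members called at ZT+2.5 were ncapd2 (-0.21), ect2 (-0.27), smc4 (-0.30), kif2c (-0.32), espl1 (-0.29) and ccna2 (-0.29), with adjusted p from 0.0675 to 0.0887 (edgeR). None of these 6 was called without the library labelled wildtype ZT+2.5 replicate 2, where 2 other members, spc24 and cdca8, were called lower instead. Of all 22632 genes tested there, 430 were called lower. Over all time points 25 members were called without that library, of which 24 were among the 28, with kif11, top2a, mki67 and anln lost and spc24 gained. At ZT+2.5 none was called without wildtype replicate 1 or without the PC1 covariate, 1 without wildtype replicate 3 or 4 or mutant replicate 2 or 3, and 9 by DESeq2. Same-numbered samples of the genotypes correlated at ZT+2.5 (0.25 to 0.47) with PC1 not removed. PC1 scores fell from replicate 1 to 4 in both genotypes there, so pairing and PC1 cannot be told apart. With the replicate block and PC1, 5 members fell at ZT+2.5, while ncapd2 no longer passed (adjusted p = 0.124, edgeR).

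Counted on levels alone, without covariates, all 4 mutant pools lay below all 4 wildtype pools in 1 member at ZT-3 (ccnb1), beside 4.18% of all genes. At ZT0 this held for 2 members (bub3 and tpx2), beside 4.62% of all genes. At ZT+2.5 it held for 8 members, ccnb1, ccna2, aurkb, kif23, kif2c, ect2, smc4 and ncapd2, beside 4.18% of all genes, and without the library labelled wildtype ZT+2.5 replicate 2 for 9 members, beside 6.84%. No member lay above wildtype in all pools at any of the time points, beside 4.417% (ZT-3), 6.71% (ZT0) and 3.42% (ZT+2.5) of all genes. The comparison over all time points uses these same samples. Leaving out ZT+2.5 lowered its count from 28 to 9 calls, ZT0 to 18 and ZT-3 to 27. Those fits hold fewer samples, and the share of all genes called in them is not given here.

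Cell type markers also differed between the genotypes, and their counts stand beside 16.5% of all genes called lower and 19.5% called higher. Of 10 erythroid genes 9 fell over all time points (median -0.38), and their summed level was 934 to 1381 CPM in wildtype at ZT-3, 952 to 1158 CPM at ZT0 and 1003 to 1353 CPM at ZT+2.5. The same sum was 605 to 785 CPM, 619 to 864 CPM and 599 to 801 CPM in klf9-/-, below wildtype at each time point. All 10 markers of exocrine pancreas and 7 of 9 of liver were called higher in the mutants, with medians of 0.80 and 0.49. Their summed levels overlapped between the genotypes at each time point. At ZT+2.5 the pancreas sum was 665.6 to 3583 CPM in wildtype and 749.7 to 5372 CPM in klf9-/-. The liver sum there was 2319 to 5775 CPM and 4672 to 6169 CPM. In lists drawn up for progenitor and germ cells the medians were near 0, beside 0.01 over all genes. For 10 genes of the retinal margin the median was 0.03 (2 higher, 1 lower). It was 0.00 for 10 of neural stem cells and radial glia (1 higher, 2 lower). For 8 of germ cells it was 0.04 (none called, and none at an unadjusted p under 0.05). Without the library labelled wildtype ZT+2.5 replicate 2, the retinal margin had 3 higher and 2 lower. Neural stem cells and radial glia had 1 higher and 3 lower there. Whether these genes follow the number of dividing cells was not tested. None of these markers was at 0 in every sample, but the 8 germ cell genes summed to only 6.655 to 9.213 CPM per sample. Those of neural stem cells and radial glia summed to 1223 to 1692 CPM. RNA purity and depth also moved with genotype. The ratio of absorbance at 260 to 230 nm given for the RNA had group medians of 1.14 to 1.40 in wildtype and 1.625 to 1.73 in klf9-/-, with overlapping ranges (0.82 to 1.69 and 0.54 to 2.25). The median library held 54621233 expected counts in wildtype and 46426734 in klf9-/-. The part of the markers, of purity and of depth in the lower level of mitosis genes was not tested.

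From ZT-3 to ZT0 many mitosis genes fell in both genotypes, and from ZT0 to ZT+2.5 some rose. Between ZT-3 and ZT+2.5 the shares of members called in each direction were near those of all genes in wildtype. The lowest group mean was at ZT0 in 33 of 38 members in wildtype and in 33 of 38 in klf9-/-. In wildtype the exceptions were wee1, bub3, smc2 and smc4, lowest at ZT-3, and ube2c, lowest at ZT+2.5. For ube2c this came from replicate 4 at 5.477 CPM, without which its mean at ZT+2.5 was 14.26 CPM, above the 13.67 CPM of ZT0. In the mutants wee1, smc2 and ncapd2 were lowest at ZT-3, and ccnb1 and mad2l1 at ZT+2.5. Each time contrast used the fit of all 24 samples with 6 group means and PC1. The contrasts of a genotype share samples: the ZT0 pools enter both steps, so that low values there make both the fall and the rise.

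**Figure D4:**
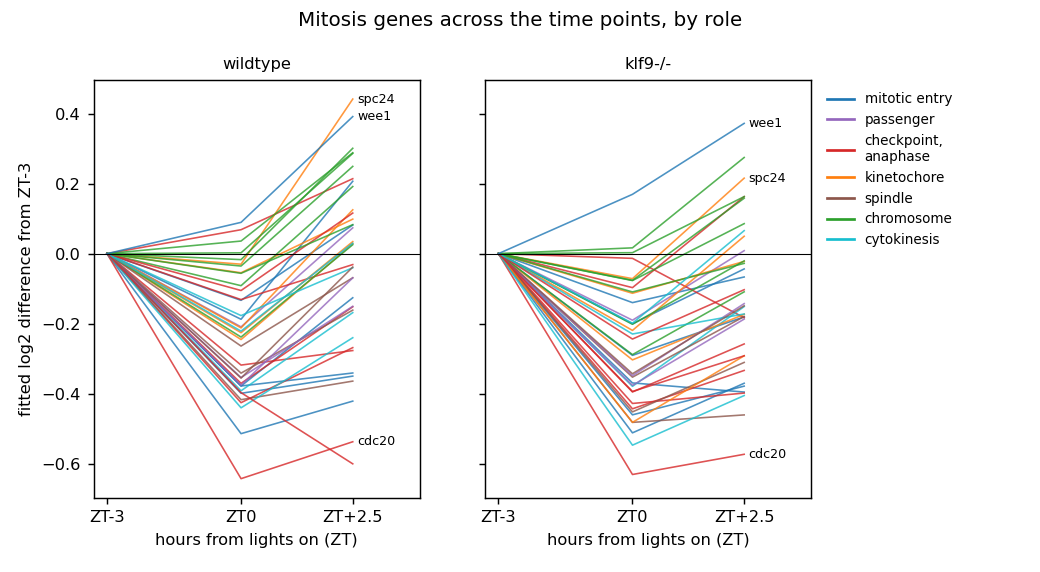
Fitted log2 difference of each of the 38 members from its own level at ZT-3, against hours from lights on, in wildtype and klf9-/- larvae, coloured by role. Most lines dip at ZT0, those of chromosome genes end at or above 0 in wildtype, and cdc20 stays low (-0.54 and -0.57) while wee1 climbs (0.39 and 0.37).

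From ZT-3 to ZT0, 15 members fell and none rose in wildtype, beside 5.6% of all genes called lower, and the median was -0.23. In klf9-/-, 17 fell and none rose, beside 7.28% of all genes, with a median of -0.29. The wildtype calls were 4 entry genes, 3 each of checkpoint, spindle and cytokinesis, and 2 of the passenger complex. Of 4 spindle genes, 3 fell in wildtype (kif11, kif2c and nusap1) and all 4 in klf9-/-. None of the 7 chromosome genes was called in either genotype, where their medians were -0.04 and -0.08. Wildtype calls depended on single pools: without replicate 4 of ZT-3 or of ZT0, 2 members were called, without replicate 1 of ZT0, 4, and without replicate 2 of ZT-3, 8. In klf9-/- the lowest count was 10, without replicate 4 of ZT0. With the 12 samples of the genotype alone, 4 were called in wildtype and 24 in klf9-/-. The share of all genes called in each of those fits is not given, so these counts do not compare the genotypes.

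The largest fall was that of cdc20 (ENSDARG00000100741), whose product activates the anaphase-promoting complex. Wildtype pools held 15.7, 16.4, 13.6 and 20.2 CPM at ZT-3, 10, 11.5, 12.5 and 8.84 CPM at ZT0 and 11.9, 12.8, 10.7 and 10.4 CPM at ZT+2.5. In klf9-/- the values were 13.6, 15.4, 13 and 15.2 CPM at ZT-3, 8.6, 8.76, 10.7 and 8.95 CPM at ZT0 and 9.26, 9.29, 9.58 and 10.6 CPM at ZT+2.5. Every pool of ZT0 and of ZT+2.5 lay below every pool of ZT-3, in both genotypes. From ZT-3 to ZT0 the log2 fold change was -0.64 ± 0.11 (SE), adjusted p = 0.000857 in wildtype and -0.63 ± 0.11 (SE), adjusted p = 0.000593 in klf9-/- (edgeR).

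The same separation held for ccnb1, whose values by pool are given above, with -0.51 ± 0.11 (SE), adjusted p = 0.00651 from ZT-3 to ZT0 in wildtype and -0.37 ± 0.11 (SE), adjusted p = 0.0373 in klf9-/- (edgeR). For kif11 (ENSDARG00000010948), the motor that pushes spindle poles apart, wildtype pools held 32.6, 35.9, 29.2 and 43.7 CPM at ZT-3, 23.7, 30.8, 33.1 and 20.6 CPM at ZT0 and 28.7, 29.8, 26.6 and 26.4 CPM at ZT+2.5. Mutant pools held 33, 33.2, 29.6 and 34.9 CPM at ZT-3, 22.4, 23.2, 24.8 and 23.3 CPM at ZT0 and 22.4, 22.9, 23.9 and 26.8 CPM at ZT+2.5. In the mutants all pools of ZT0 were below all of ZT-3, and in wildtype the higher pair of ZT0 pools reached into the range of ZT-3. The log2 fold changes from ZT-3 to ZT0 were -0.42 ± 0.12 (SE), adjusted p = 0.039 in wildtype and -0.48 ± 0.12 (SE), adjusted p = 0.0109 in klf9-/- (edgeR).

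Levels of bub1bb (ENSDARG00000074927), a checkpoint gene of the BubR1 family, were 8.99, 9.15, 7.78 and 10.3 CPM at ZT-3, 5.58, 7.79, 7.27 and 5.76 CPM at ZT0 and 8.63, 7.69, 6.54 and 6.72 CPM at ZT+2.5 in wildtype. They were 7.68, 8.28, 8.24 and 9.48 CPM at ZT-3, 5.81, 6.39, 6.56 and 5.99 CPM at ZT0 and 7.09, 6.32, 6.29 and 6.75 CPM at ZT+2.5 in klf9-/-. Again the mutant pools of ZT0 and ZT+2.5 were all below those of ZT-3, and the wildtype pools overlapped. The fall to ZT0 was -0.43 ± 0.11 (SE), adjusted p = 0.0145 in wildtype and -0.44 ± 0.11 (SE), adjusted p = 0.00763 in klf9-/- (edgeR). For cdk1 and plk1 the wildtype changes to ZT0 were -0.38 ± 0.10 (SE) and -0.38 ± 0.11, and both passed the test in both genotypes.

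From ZT0 to ZT+2.5, 11 members rose and none fell in wildtype, beside 8.74% of all genes called higher, with a median of 0.22 and 37 of 38 values positive. In klf9-/-, 6 rose and none fell, beside 8.22% of all genes, with a median of 0.15 and 36 positive values. The wildtype calls were wee1, spc24, nuf2, ncapg, ncapd2, smc4, mki67, racgap1, nusap1, cdca8 and ccnb2. In klf9-/- they were bub3, racgap1, wee1, ncapd2, nuf2 and ncapg. Not called in this step were cdc20, plk1 and kif11, with 0.11 ± 0.11 (SE) for cdc20, 0.04 ± 0.11 for plk1 and 0.05 ± 0.12 for kif11 in wildtype. Here too single pools mattered: without replicate 1 or 4 of ZT0 or replicate 1 of ZT+2.5, 4 members were called in wildtype, and 18 without replicate 3 of ZT0. Without the library labelled wildtype ZT+2.5 replicate 2, 9 rose and none fell, with mki67 and nusap1 lost. In klf9-/- the count fell to 3 without replicate 1 or 3 of ZT0 or replicate 1, 3 or 4 of ZT+2.5, and to 2 without replicate 4 of ZT0.

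Across the whole interval, from ZT-3 to ZT+2.5, 7 members rose and 7 fell in wildtype, beside 14.4% of all genes called higher and 14.7% called lower, so that the counts in each direction were near the background. The median was -0.00 and 19 of 38 values were positive. Those that rose were wee1, spc24, bub3 and 4 condensin genes (ncapg, smc4, smc2 and ncapd2), and those that fell were ube2c, cdc20, ccnb1, kif11, aurka, plk1 and bub1bb. The value of ube2c, -0.60 (adjusted p = 0.0264, edgeR), became -0.39 ± 0.10 (SE, adjusted p = 0.00855) without replicate 4 of ZT+2.5, whose 5.477 CPM lay far below the 12.91 to 15.19 CPM of the other pools. That pool was left out after its value was seen. The products of cdc20 and ube2c act with the anaphase-promoting complex, a target of which is cyclin B1. In klf9-/-, 3 rose (wee1, ncapd2 and bub3) and 10 fell (cdc20, kif11, plk1, ccnb1, bub1bb, anln, bub1, aurka, kif2c and ttk), beside 15.9% of all genes higher and 15.8% lower, and the median was -0.15. Same-numbered wildtype samples of these 2 times correlated (0.16 to 0.40) with PC1 not removed. PC1 scores fell from replicate 1 to 4 in both groups (1.15 to -0.92 and 0.85 to -1.62), so pairing and PC1 cannot be told apart. With the replicate block and PC1 on those 8 samples alone, few degrees of freedom were left. No member was called there, as the calls over all genes fell from 6733 to 865. With the same block on all 24 samples, 14 members were called. The 7 that rose in wildtype became 3 without replicate 1 of ZT+2.5 and 4 without replicate 3 of ZT-3, and the 7 that fell became 2 without replicate 4 of ZT-3. Without the library labelled wildtype ZT+2.5 replicate 2, 6 rose and 6 fell in wildtype, with smc2 and bub1bb lost. The 10 that fell in klf9-/- became 6 without replicate 2 of ZT+2.5.

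In this contrast wee1 had the smallest p in both genotypes. All wildtype pools of ZT+2.5 (13.62 to 16.03 CPM) lay above all those of ZT-3 (9.626 to 12.15 CPM) and ZT0, and the same held in klf9-/-. Its log2 fold change was 0.39 ± 0.07 (SE), adjusted p = 0.000177 in wildtype and 0.37 ± 0.07 (SE), adjusted p = 0.000256 in klf9-/- (edgeR). The rise fell mostly after lights on in wildtype, with 0.09 ± 0.07 (SE) before ZT0 and 0.30 ± 0.07 after it. In klf9-/- the steps were 0.17 ± 0.07 (adjusted p = 0.12, edgeR) and 0.20 ± 0.07.

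Values by pool follow for ncapg and spc24. In wildtype, spc24 was the only 1 of 5 outer kinetochore genes called in this contrast, and their median was 0.10. For ncapg (ENSDARG00000070109), a condensin subunit, wildtype pools held 21.8, 21.3, 18.1 and 25.4 CPM at ZT-3, 20.6, 22, 23.6 and 18.8 CPM at ZT0 and 30, 27.2, 24 and 24.9 CPM at ZT+2.5. Mutant pools held 20.5, 20.1, 19.7 and 22.6 CPM at ZT-3, 20.9, 19.7, 19.2 and 18.7 CPM at ZT0 and 22.7, 21.7, 22.5 and 25.2 CPM at ZT+2.5. All pools of ZT+2.5 lay above all of ZT0 in each genotype, and overlapped those of ZT-3. From ZT-3 to ZT+2.5 the log2 fold change was 0.30 ± 0.09 (SE), adjusted p = 0.0156 in wildtype and 0.16 ± 0.09 (SE), adjusted p = 0.212 in klf9-/- (edgeR).

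For spc24 (ENSDARG00000093622), a subunit of the Ndc80 complex that binds microtubules, the wildtype values were 3.57, 4.45, 3.2 and 3.71 CPM at ZT-3, 3.12, 3.84, 4.05 and 2.95 CPM at ZT0 and 6.17, 4.05, 4.63 and 4.7 CPM at ZT+2.5. Those of klf9-/- were 3.21, 3.38, 3.25 and 4.5 CPM at ZT-3, 3.74, 3.37, 3.51 and 2.96 CPM at ZT0 and 4.32, 4.23, 4.02 and 3.69 CPM at ZT+2.5. The wildtype mean at ZT+2.5 owed much to replicate 1, at 6.17 CPM, and all neighbouring groups overlapped. Its change from ZT-3 to ZT+2.5 was 0.44 ± 0.13 (SE), adjusted p = 0.0132 in wildtype and 0.22 ± 0.13 (SE), adjusted p = 0.246 in klf9-/- (edgeR).

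Whether the genotype difference of a member changed with time was tested by the interaction of genotype and time in the fit of 24 samples. No member was called, beside 0.0173% of all genes (4 of 23158), and none had an unadjusted p under 0.05. DESeq2's likelihood ratio test also called 0 members, and 36 genes in all. A change of the genotype difference between time points was thus tested and not called. The larger number of calls at ZT+2.5 than at ZT-3 does not by itself show one.

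In 6 lists of 127 further measured genes of mitosis, 57 fell and 10 rose in klf9-/- over all time points, beside 16.5% of all genes called lower and 19.5% called higher. The median was -0.11, with 106 of 127 values negative. Of 29 centromere and kinetochore genes 17 fell and none rose, among them spdl1, a dynein adaptor at kinetochores, with -0.28 ± 0.08 (SE). Of 25 spindle genes 12 fell and none rose, with kif20a, a kinesin of the central spindle, at -0.31 ± 0.07. Of 14 regulators of cell cycle transcription, repressors among them, 7 fell and none rose. Of 17 further genes of mitotic entry, not all of them kinases or cyclins, 4 fell and 4 rose. The lowest called was the mitotic kinase gene pbk at -0.40 ± 0.06, and the highest was ccna1 at 0.45 ± 0.16. Both counts of these 17 were near the shares of all genes. Genes of the anaphase-promoting complex and mitotic exit were divided, with 11 lower and 4 higher of 22. So were those of condensin II and cohesin, with 6 lower and 2 higher of 20, among the latter stag2a at 0.26 ± 0.03. From ZT-3 to ZT0, 22 of the 127 fell in wildtype and 2 rose (median -0.07), beside 1297 lower and 1414 higher of all 23158 genes. In klf9-/- 28 fell and 8 rose (median -0.07), beside 1685 lower and 2154 higher. The share that rose was below that of all genes in both genotypes.

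DNA replication genes, which act in the S phase before mitosis, were lower in klf9-/- and rose with time. Of 32 such genes, 24 fell in klf9-/- over all time points and none rose (median -0.15), beside 16.5% of all genes called lower and 19.5% called higher. With time they rose at each step, with none called lower. From ZT-3 to ZT0, 16 of 32 rose in wildtype and 18 in klf9-/-, beside 1414 and 2154 of all 23158 genes. From ZT0 to ZT+2.5, 18 rose in wildtype and 13 in klf9-/-, beside 8.74% and 8.22% of all genes. From ZT-3 to ZT+2.5, 30 rose in wildtype (median 0.51) and 31 in klf9-/- (median 0.46), beside 14.4% and 15.9% of all genes. Among them was pola1, a subunit of DNA polymerase alpha, with 0.81 ± 0.08 (SE) in wildtype. The mitosis genes had medians of -0.00 and -0.15 over the same interval, in the same samples. Of 16 tested genes of cyclin-dependent kinase inhibition and G1, cdkn1a, which encodes the inhibitor p21, fell from ZT-3 to ZT+2.5 in wildtype by a log2 fold change of -1.68 ± 0.10 (SE). In that list 4 others rose while 1 other fell, beside 14.4% of all genes called higher and 14.7% called lower.

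Members varied together between pools of a group. After group means were removed, the mean correlation over the 703 pairs of members across the 24 samples was 0.65, and 686 pairs were positive. With PC1 removed as well it was 0.67, beside 0.003 over all genes tested. These points share their libraries and scaling, so the value is a description. The members are thus not independent of each other, and counts of 28 or 15 calls do not stand for as many separate observations. With the mean of the other members, plk1, kif11, kif23, kif2c and bub1 correlated most (0.94 to 0.95), and bub3 (0.22) and wee1 (0.28) least. Their correlations with PC1 itself ran from -0.33 (wee1) to 0.33 (ube2c), with a median of -0.03.

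The spread between pools was wider in wildtype at 2 of the time points. At ZT-3 the SD of log2 CPM was larger in wildtype than in klf9-/- for 35 of 38 members, with medians of 0.22 and 0.11, while over all genes it was larger in wildtype for 44% and the medians were 0.16 and 0.16. At ZT0 it was larger in wildtype for 36 members (medians of 0.22 and 0.09), beside 50.4% of all genes. At ZT+2.5 it was larger for 16 members, with medians of 0.13 and 0.14. With 4 pools per group and members that vary together, this rests on few pools and was not tested.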

How the data were processed

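RNA of 24 pools of zebrafish larvae was sequenced from single ends. Per the submitters' processing notes, reads were trimmed (Trim Galore 0.6.5), aligned (STAR 2.7.5c) and counted (RSEM 1.3.3). The authors deposited expected counts per gene, not normalized, of which 18.0% were not whole numbers, and regularized log2 values made with DESeq2 1.30.1. The table of log2 values served only for PC1, which the study used as a covariate against differences between replicates. Deposited tables of the authors' own comparisons were not used.

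Members were matched by symbol, and 51 rows had no symbol. Counts were rounded, filtered with filterByExpr by group, scaled by TMM (factors 0.925 to 1.074) and tested with edgeR 4.0.16 (quasi-likelihood, robust) in R 4.3.3, with Benjamini-Hochberg adjustment over all genes and calls at 0.1 or less. The SE of a log2 fold change is its absolute value divided by the square root of the F statistic of the same edgeR test. It is thus tied to the p-value and is no separate estimate of spread. The alternative tool was DESeq2 1.42.0. Comparisons, samples and covariates are named beside each result. No 2 replicates agreed within counting noise (36 pairs, ratios of 7.17 to 88.6), and p-values measure the spread between pools. The fits were tested on simulated counts. Same-numbered samples correlated above 0.1 in every pair only between genotypes at ZT+2.5 and between ZT+2.5 and ZT-3 in wildtype, from the data and not from the labels. PC1 was not removed from these correlations, and its scores fell from replicate 1 to 4 in each of the groups concerned.

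Values by sample are given for wee1, ccnb1, cdk1 and plk1, for the 4 further members of smallest p between genotypes, and for the 4 of smallest p from ZT-3 to ZT+2.5 in each genotype. Of other lists at most the called genes of extreme value are named. Members, roles and lists were chosen with earlier results of these data known. Sequences and promoter motifs were not analysed here.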

Additional observations from a re-analysis of the deposited data

Results flagged for a closer look

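In 6 of 84 groups of 4 pools tested, 1 pool lay far from the other 3 relative to the range of the group, which chance gives in about 1 in 20 groups. In wildtype at ZT+2.5, plk1 was at 29.4 CPM in replicate 1 and at 24.5 to 25.1 CPM in the others. In klf9-/- at ZT-3, replicate 1 had the highest wee1 (13.64 CPM, the others 11.2 to 11.5 CPM) and the lowest bub3 (11.91 CPM, the others 13.1 to 13.2 CPM). In the same group, replicate 4 had the highest spc24 (4.504 CPM, the others 3.21 to 3.38 CPM). In klf9-/- at ZT0, replicate 1 had the lowest wee1 (12.4 CPM, the others 13.7 to 13.9 CPM), and replicate 3 the highest cdc20 (10.72 CPM, the others 8.60 to 8.95 CPM).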

How the results depend on the processing

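Of 212 alternative counts of called members, 156 stayed within 1.5 times the main count. The 996 alternative values of named members covered only comparisons called in the main fit, a choice that favours a stable sign. Among them none changed sign and 131 no longer passed the test. Between genotypes, 1 member was called at ZT-3 with the replicate block. At ZT0, where 2 were called, the count was 1 at an adjusted p of 0.05, without PC1, without a filter or with DESeq2, 6 with the replicate block and 0 with an added minimum of 0.5 for the log2 fold change. At ZT+2.5, where 6 were called, it was 0 at an adjusted p of 0.05, at the added fold change or without PC1 (all genes from 1506 to 234 calls). Over all time points it was 0 at the added fold change, 18 without ZT0 and 9 without ZT+2.5, the last 2 settings chosen after seeing the data.

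With time, the added fold change left 2, 0 and 2 calls in wildtype (ZT0 vs ZT-3, ZT+2.5 vs ZT0 and ZT+2.5 vs ZT-3) and 3, 0 and 1 in klf9-/-. At an adjusted p of 0.05, 8 and 6 were left for the first 2 of these in wildtype and 2 for ZT+2.5 vs ZT0 in klf9-/-, where 3 were left without PC1. With the 12 samples of the genotype, wildtype counts were 4, 5 and 7, and with a replicate block on the 8 samples of ZT+2.5 and ZT-3, a setting chosen after seeing the data, 0. Same-numbered samples correlated in every pair only in these groups and between the genotypes at ZT+2.5, with PC1 not removed. Apart from the genotype counts at ZT-3 and ZT0 given above, the block changed no other count by over 1.5 times.

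Leaving out 1 pool gave 0 to 5 calls at ZT-3, 0 to 11 at ZT0 and 0 to 9 at ZT+2.5 between genotypes and 23 to 32 over all time points. For ZT0 vs ZT-3 it gave 2 to 19 in wildtype and 10 to 18 in klf9-/-. For ZT+2.5 vs ZT0 it gave 4 to 18 and 2 to 6. The share of all genes called in these fits is not given beside the counts. Without wildtype replicate 4 of ZT-3 the median of the members between genotypes at ZT-3 went from -0.13 to 0.01. Of 162 alternative medians the other 161 moved by less than the spread of 0.14 between pools. That margin is about as wide as some of the medians themselves, such as the -0.13 at ZT-3. Without wildtype ZT+2.5 replicate 2, a setting chosen for the other lists after seeing the data, 30 of 32 DNA replication genes again rose from ZT-3 to ZT+2.5 in wildtype and 20 in place of 18 from ZT0. Of all 23283 genes tested without that library, 3185 and 1920 were called higher. The interaction had 0 called members under every setting run. Promoter motifs were not run. The cause of these changes was not tested. Depth gave at least 128 counts per sample on average for each member.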

Other observations

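Among mitosis genes outside the members, 13 of 29 of the centromere and kinetochore rose from ZT-3 to ZT+2.5 in wildtype and 1 fell (median 0.21), beside 14.4% of all genes called higher and 14.7% called lower, with kntc1, part of the complex that loads dynein onto kinetochores, at 0.63 ± 0.09 (SE, log2 fold change) and bub1ba at -0.35 ± 0.12. The activator gene mybl2b, a Myb factor of cell cycle transcription, rose by 0.50 ± 0.10, the condensin II gene ncapd3 by 0.54 ± 0.10 and the spindle motor gene kif15 by 0.56 ± 0.10. The kinase gene nek2, which acts at the centrosome, fell by 0.50 ± 0.15 and the cytokinesis gene cep55l fell by 0.53 ± 0.13. Without the library labelled wildtype ZT+2.5 replicate 2, 9 of the 29 rose and none fell, and bub1ba had -0.28 (adjusted p = 0.133, edgeR). Over the 127 genes 33 rose and 18 fell, the latter near the share of all genes. Without the library labelled wildtype ZT+2.5 replicate 2, 28 rose and 13 fell, beside 3185 higher and 3076 lower of all 23283 genes. The single genes named here were picked for their extreme values.

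Between genotypes over all time points, the cohesin gene smc1a had a log2 fold change of -2.44 ± 0.53 (SE), far from the other 19 genes of its list, whose median with it was -0.03. Its cause was not tested.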
